A study of Homo sapiens with 18 samples.

Results

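The box H/ACA small nucleolar ribonucleoproteins convert selected uridines of ribosomal and spliceosomal RNA to pseudouridine. A guide RNA of the H/ACA class pairs with the substrate, and 4 core proteins, DKC1, NHP2, NOP10 and GAR1, carry out the reaction. The same 4 proteins bind the H/ACA domain of the telomerase RNA, and inherited defects of DKC1, NHP2 or NOP10 cause the telomere disease dyskeratosis congenita. SHQ1 and NAF1 are assembly factors that do not stay in the mature particle. SHQ1 holds newly made DKC1 away from RNA, and NAF1 occupies the position that GAR1 takes over at the end of assembly. The box C/D particles, whose methyltransferase is fibrillarin, are the sister class, so a fibrillarin knockdown leaves the H/ACA genes as an untargeted branch of the same nucleolar machinery.

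The genes described are DKC1, NHP2, NOP10, GAR1, NAF1 and SHQ1, chosen by name. All 6 were found among the 17017 gene symbols of the deposited table, and all 6 passed the filter on low counts in every fit. The table held 0 symbols for H/ACA guide RNAs (names starting SNORA or SCARNA), so the results concern the protein genes alone.

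The cells were MDA-MB-231, an established human triple-negative breast carcinoma line. Every treatment, the control included, was a lentiviral transduction for 48 h and 96 h of selection in 1 µg/ml puromycin, and all cells received 100 µg/ml cycloheximide for 5 min before lysis. SC is read here as the scramble hairpin, and SH2 and SH3 as hairpins against fibrillarin mRNA. Which of them the protocols call knockdown 1 is not stated, nor whether the replicates were separate transductions, so p-values measure the spread between these samples, which may be technical. Each treatment had 3 replicates of input cytoplasmic RNA and 3 of ribosome footprints, 18 libraries in all.

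RNA libraries held 23469830 to 27629488 counts and footprint libraries 1662705 to 6098648, with SH3 replicate 1 the shallowest. The 6 genes had 288 to 6777 counts per RNA library and 89 to 1521 per footprint library. Levels are given as CPM, the counts as a share of the scaled library. A change in RNA per cell that affects all genes alike cannot be seen. FBL, the targeted gene, stood at 349 to 421 CPM in SC RNA, 1.26 to 11.2 CPM in SH2 and 2.95 to 4.15 CPM in SH3. Of the line's markers, VIM (5579 CPM in SC RNA) and CD44 (316 CPM) were high. ESR1, PGR and CDH1 were each at a mean of 0.337 CPM or less, while EPCAM stood at 5.66 CPM and ERBB2 at 95.3 CPM.

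Where the annotated transcripts begin is shown first, because many mRNAs of the translation machinery start with a C followed by a run of pyrimidines, the 5′ terminal oligopyrimidine (TOP) signal. The windows below run from 10 bases before the start site through the first 20 transcribed bases, 5′ to 3′, and the capitals are the first 5 transcribed bases. They come from RefSeq, GRCh38.p14, which held a promoter entry for 5 of the 6 genes and not for NAF1. GAR1 has 2 entries, of which the more upstream start is shown.
DKC1, chrX:154762854-154762883, plus strand: gtgcgcgggtGGGTGggtcctagcagcgcg
NHP2, chr5:178153866-178153895, minus strand: gatgacctggAAGTGatgcctaaagctgtg
NOP10, chr15:34343117-34343146, minus strand: acgtgacgcgGTCGGgcggaccactgcaga
GAR1, chr4:109815500-109815529, plus strand: gcaaaggacgCCGCTgttatacgtcacttc
SHQ1, chr3:72848426-72848455, minus strand: gaagctccgtCCCTCacaccgagagttcct
A C followed by 4 bases that are C or T stood at the annotated start of SHQ1 alone among these entries, against 4.07% of 35116 RefSeq promoters. NHP2 and NOP10, whose RNA fell in both knockdowns (below), had no such start in this annotation. Neither did DKC1, whose RNA rose in both, and a link between starts and RNA changes was not tested. The E-box, CACGTG, which reads the same on both strands and is bound by basic helix-loop-helix factors, was in 2 of the 6 promoter entries, that of NOP10 and the other GAR1 entry. All promoter entries are 300 bases long, and 7.26% of them hold it. The NOP10 entry has it at position -170 and again at position -11 from the start site, and the latter copy is shown in capitals in its 30-base context, chosen because it lies next to the start.
NOP10, chr15:34343130-34343159, minus strand: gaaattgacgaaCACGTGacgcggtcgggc
CCGGAA, a core of ETS-family sites, was searched on both strands and lay in 3 of the 6 entries (NOP10, the upstream GAR1 entry and SHQ1), against 17.2% of all. These matches describe letters in a window and not binding.

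In RNA the core subunits differed in direction. DKC1 rose in both knockdowns, NHP2 and NOP10 fell in both, and GAR1 was called in SH2 only, where it stood at 47.0% of SC. The assembly factors differed by hairpin, with SHQ1 higher in SH2 and NAF1 lower in SH3. In SH2, 5 of the 6 genes were called (an adjusted p under 0.05), 2 higher and 3 lower, where 61.4% of the 12710 genes tested were called, 31.1% higher and 30.4% lower. In SH3, 4 of 6 were called, 1 higher and 3 lower, where 53.0% of all genes were called, 27.8% higher and 25.2% lower. These shares are near the background, where higher and lower calls were about as common, so neither counts nor mixed directions set these genes apart. Of all genes tested, 73.2% in SH2 and 82.5% in SH3 lay below DKC1. For NHP2 the shares below were 23.0% and 28.8%, and for NOP10 20.6% and 26.7%. The share of all genes called the same way in both knockdowns was not computed. The median change over the 6 genes was -0.35 in SH2 and -0.24 in SH3, with medians over all genes of 0.012 and 0.034.

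DKC1, dyskerin, is the catalytic subunit and the pseudouridine synthase itself. Its RNA was at 160, 176 and 180 CPM in SC, at 210, 246 and 240 CPM in SH2 and at 211, 283 and 260 CPM in SH3, for replicates 1, 2 and 3. All 6 knockdown libraries lay above all 3 SC libraries, and SH2 and SH3 overlapped. DKC1 changed by 0.43 on the log2 scale in SH2 (SE 0.11, edgeR adjusted p 0.00464). The SH3 change was 0.54 (SE 0.11, edgeR adjusted p 0.00117), and the means were 135% and 146% of SC. Between the hairpins the log2 difference was -0.11, with a 95% interval of -0.36 to 0.13. RefSeq places 2 H/ACA guide RNA genes, SNORA36A and SNORA56, within the DKC1 gene. How reads in such nested genes were counted is not stated, and its part in the DKC1 counts was not tested. EIF4A1, another gene with such guides in its introns, had 7 to 16 counts per RNA library and 0 or 1 per footprint library. The other such host genes described below held from 919 counts (TAF1D) to 79292 (RPSA) per RNA library.

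NHP2 and NOP10 are small core proteins. NHP2 binds RNA and NOP10 bridges it to DKC1. NHP2 RNA was at 176, 151 and 177 CPM in SC, 117, 113 and 121 CPM in SH2, and 129, 152 and 130 CPM in SH3. The SH2 libraries lay under all SC libraries, while SH3 replicate 2 just overlapped the lowest SC library. NHP2 changed by -0.52 in SH2 (SE 0.099, edgeR adjusted p 0.000403) and, more weakly, by -0.29 in SH3 (SE 0.099, edgeR adjusted p 0.0218). The SH3 call was lost without SC replicate 3, SH3 replicate 1 or SH3 replicate 3 and with plain library totals, with edgeR adjusted p-values of 0.0918, 0.0519, 0.0648 and 0.0820 and log2 changes of -0.26, -0.29, -0.29 and -0.20. In RefSeq NHP2 overlaps the gene RMND5B and has named pseudogenes, NHP2P1 and NHP2P2, so its counts are uncertain where shared reads or strand were not separated. NOP10 RNA was at 68.0, 57.0 and 63.3 CPM in SC, 42.4, 43.3 and 40.0 CPM in SH2, and 52.4, 48.7 and 48.0 CPM in SH3. The 3 groups did not overlap, with SC highest and SH2 lowest. NOP10 changed by -0.58 on the log2 scale in SH2 (SE 0.096, edgeR adjusted p 0.000138). Its SH3 change was -0.34 (SE 0.096, edgeR adjusted p 0.00910). The direct comparison of the hairpins did not pass for either gene, at -0.23 for NHP2 (95% interval -0.44 to -0.018, edgeR adjusted p 0.0796) and -0.25 for NOP10 (95% interval -0.45 to -0.039, edgeR adjusted p 0.0574).

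GAR1 completes the mature particle and is needed for efficient turnover of the substrate. GAR1 RNA was at 29.9, 28.9 and 30.8 CPM in SC, and at 12.5, 19.4 and 10.2 CPM in SH2, 47.0% of SC by the means. In SH3 it was at 27.1, 25.5 and 26.4 CPM, just under the SC range. The SH2 libraries were the lowest and the most scattered, with replicate 2 nearest to the others. GAR1 changed by -1.09 in SH2 (SE 0.18, edgeR adjusted p 0.000110), the deepest RNA change of the 6 genes, and 8.32% of all genes tested lay below it. In SH3 it was -0.18 (95% interval -0.55 to 0.18, edgeR adjusted p 0.386). The hairpins differed by -0.91 (SE 0.18, edgeR adjusted p 0.00116).

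Of the assembly factors, NAF1 was called in SH3 only, the reverse of GAR1, and SHQ1 in SH2 only. NAF1 RNA was at 39.2, 37.8 and 42.1 CPM in SC, 35.5, 34.6 and 35.3 CPM in SH2, and 23.6, 32.4 and 27.6 CPM in SH3. Its 3 groups did not overlap, with SH3 lowest. NAF1 changed by -0.51 in SH3 (SE 0.12, edgeR adjusted p 0.00203) and by -0.18 in SH2 (95% interval -0.42 to 0.069, edgeR adjusted p 0.196). The hairpins differed by 0.33 (SE 0.12, edgeR adjusted p 0.0330). That call was lost without SH2 replicate 1 or 3 or SH3 replicate 1 or 3, with edgeR adjusted p-values of 0.0725, 0.0605, 0.119 and 0.0787.

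SHQ1 RNA was at 43.2, 45.8 and 47.2 CPM in SC, 66.6, 59.0 and 58.2 CPM in SH2, and 46.8, 47.0 and 46.7 CPM in SH3. The SH2 libraries stood above the other 6, and SH3 lay within the SC range. SHQ1 changed by 0.43 in SH2 (SE 0.092, edgeR adjusted p 0.00101) and by 0.045 in SH3 (95% interval -0.15 to 0.24, edgeR adjusted p 0.702). RefSeq lists a pseudogene, SHQ1P1, which reads of SHQ1 could share. The difference between the hairpins was 0.39 (SE 0.092, edgeR adjusted p 0.00442). In all, 3 of the 6 genes were called between SH2 and SH3 in RNA, GAR1 lower in SH2 and NAF1 and SHQ1 higher, where 39.3% of all genes were called, 18.9% higher in SH2 and 20.4% lower.

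**Figure D1:**
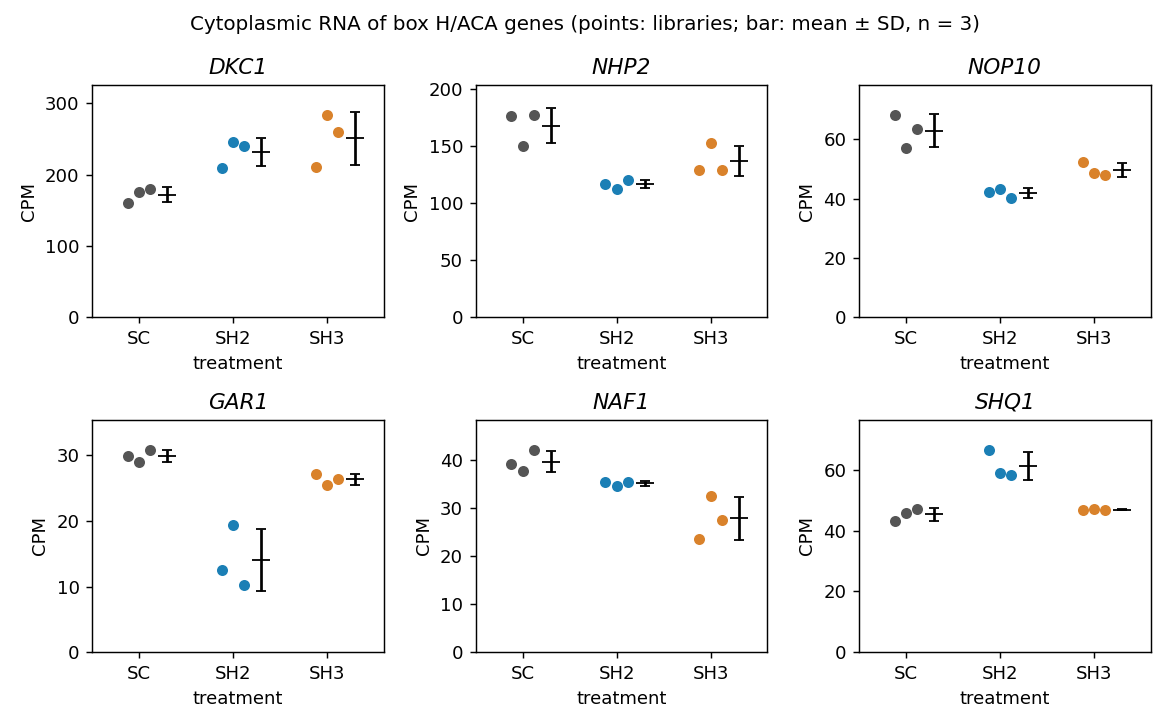
RNA level (CPM, linear axes from 0) of the 6 box H/ACA genes by treatment. Coloured points are the 3 libraries of a treatment, and the black mark and bar are their mean and SD. DKC1 rose in SH2 and SH3, NHP2 and NOP10 fell in both, GAR1 was lowest in SH2 (10.2 to 19.4 CPM), NAF1 lowest in SH3 and SHQ1 highest in SH2.

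Footprints are the stretches of mRNA covered by ribosomes, and their libraries were shallower than those of RNA. In SH2, 1 of the 6 genes was called, NHP2, against 44.2% of the 10345 genes tested, of which 21.0% were higher and 23.2% lower. In SH3, 2 were called, NOP10 and NAF1, against 35.9%, with 16.9% higher and 19.0% lower. All 3 calls were falls, and DKC1, GAR1 and SHQ1 had none.

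DKC1 footprints were at 247, 207 and 239 CPM in SC, 237, 216 and 225 CPM in SH2, and 209, 286 and 259 CPM in SH3. The 3 treatments overlapped. The log2 change was -0.037 in SH2 (95% interval -0.33 to 0.26, edgeR adjusted p 0.854) and 0.12 in SH3 (95% interval -0.17 to 0.42, edgeR adjusted p 0.526), although its RNA had risen in both.

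NHP2 footprints were at 126, 84.7 and 103 CPM in SC and at 63.7, 57.8 and 78.3 CPM in SH2, where every library lay below SC. In SH3 they were at 108, 99.3 and 87.3 CPM, within the SC range. NHP2 footprints changed by -0.66 in SH2 (SE 0.17, edgeR adjusted p 0.00474) and by -0.11 in SH3 (95% interval -0.46 to 0.25, edgeR adjusted p 0.659). NOP10 footprints were at 151, 156 and 143 CPM in SC, 126, 125 and 130 CPM in SH2, and 115, 106 and 108 CPM in SH3, with no overlap between any of the 3 treatments and SH3 lowest. NOP10 changed by -0.45 in SH3 (SE 0.12, edgeR adjusted p 0.00970) and by -0.24 in SH2 (95% interval -0.50 to 0.022, edgeR adjusted p 0.126). The hairpins did not pass against each other (0.22, 95% interval -0.048 to 0.48, edgeR adjusted p 0.227). Without SH3 replicate 2 the SH3 value was -0.42 at an edgeR adjusted p of 0.0512.

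GAR1 footprints were at 58.1, 73.3 and 57.3 CPM in SC, 47.4, 48.5 and 47.6 CPM in SH2, and 55.0, 83.2 and 79.9 CPM in SH3. The SH2 libraries lay together under SC, and SH3 spanned the SC range. GAR1 changed by -0.38 in SH2 (SE 0.17, edgeR adjusted p 0.0775). In SH3 its change was 0.23 (SE 0.17, edgeR adjusted p 0.293). NAF1 footprints were at 72.4, 112 and 93.9 CPM in SC, 64.1, 67.8 and 76.7 CPM in SH2, and 53.9, 56.2 and 44.9 CPM in SH3, 55.6% of SC by the means. SH3 lay under both other groups, and SH2 overlapped SC. NAF1 changed by -0.84 in SH3 (SE 0.17, edgeR adjusted p 0.00156), the deepest footprint change of the 6 genes, and by -0.41 in SH2 (SE 0.17, edgeR adjusted p 0.0596). With the replicate number as a block, by which the SH2 and SC libraries deviated together, GAR1 and NAF1 footprints passed in SH2, at -0.39 and -0.40 and edgeR adjusted p-values of 0.0398 and 0.0379, so that 3 of the 6 genes were called, where 48.5% of all genes were called with that block. SHQ1 footprints were at 48.2, 37.5 and 41.7 CPM in SC, 51.5, 61.8 and 53.1 CPM in SH2, and 58.5, 44.9 and 42.1 CPM in SH3. SH2 stood above all SC libraries, with a log2 change of 0.38 (SE 0.17, edgeR adjusted p 0.0773), and the SH3 change was 0.16 (SE 0.17, edgeR adjusted p 0.484).

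Between the hairpins 2 of the 6 genes were called in footprints, both lower in SH2, against 23.8% of all genes, 12.1% higher and 11.6% lower. They were GAR1 (log2 difference -0.62, SE 0.17, edgeR adjusted p 0.0159) and NHP2 (-0.56, SE 0.17, edgeR adjusted p 0.0274). Neither call held when single libraries were left out. GAR1 lost it without SH2 replicate 3, SH3 replicate 2 or SH3 replicate 3 (edgeR adjusted p 0.0519, 0.0940 and 0.0688). NHP2 lost it without SH2 replicate 1 or 2 or SH3 replicate 1 or 2 (edgeR adjusted p 0.0755, 0.121, 0.0892 and 0.0852).

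**Figure D2:**
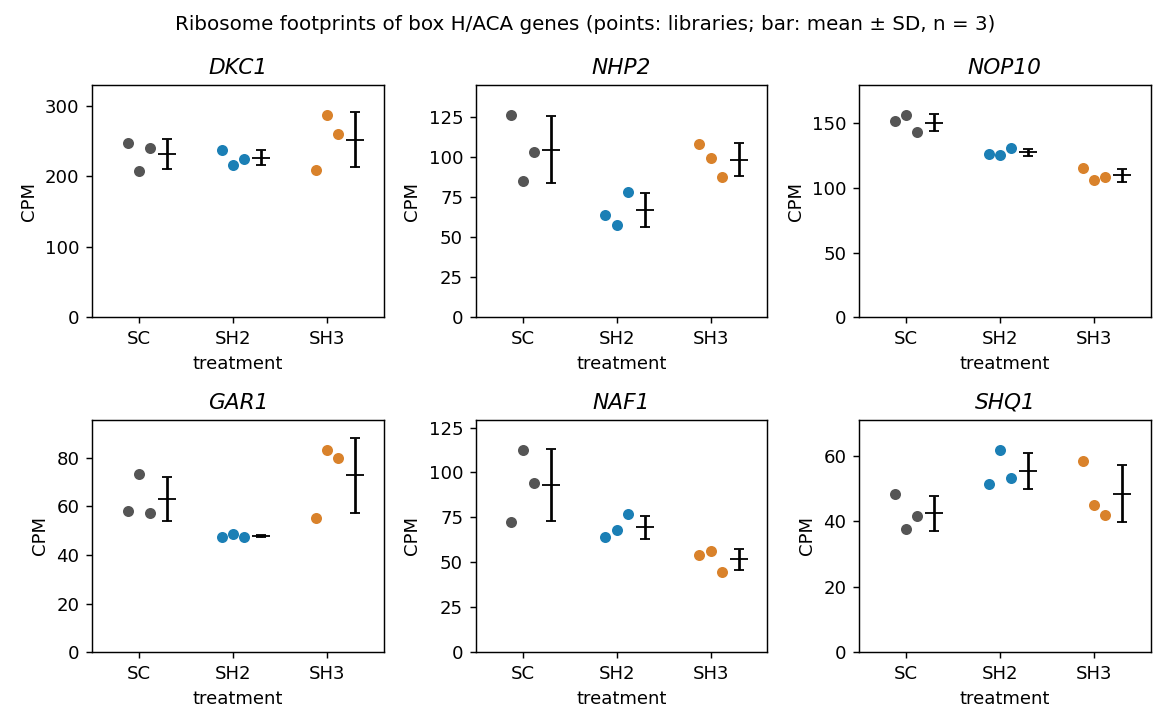
Ribosome footprint level (CPM, linear axes from 0) of the same genes, with points, means and SDs as for RNA. The 3 SH2 libraries of NHP2 lie under the SC libraries, NOP10 and NAF1 are lowest in SH3, and DKC1 overlaps between all treatments.

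Translational efficiency, here the change in footprints minus that in RNA on the log2 scale, was called for 0 of the 6 genes in each comparison by edgeR, where 3.90% of 12531 genes were called in SH2 (1.44% higher, 2.46% lower), 0.686% in SH3 and 0.0160% between the hairpins. At an unadjusted p under 0.05 there were 3 in SH2 (DKC1, NOP10 and GAR1), 1 in SH3 (DKC1) and 1 between the hairpins (NOP10), against 17.9%, 12.6% and 11.7% of all genes. The DESeq2 Wald test called 0, 0 and 1 of the 6, beside 8.80%, 3.93% and 2.28% of the genes to which it gave an adjusted p.

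The single genes are described next, and differences between genes were not tested. Each ratio sets footprints against RNA of the same replicate number. Across genes, deviations of such libraries correlated at -0.49, -0.46 and 0.26 in SC and -0.30, -0.31 and 0.50 in SH2. In SH3 they were 0.42, 0.29 and 0.21. The numbers of SC and SH2 thus need not mark the same lysate. The edgeR efficiency values of the main fit do not use them. The ratio of footprint CPM to RNA CPM of DKC1 was 1.54, 1.18 and 1.33 in SC, 1.13, 0.878 and 0.936 in SH2, and 0.992, 1.01 and 0.999 in SH3 for the 3 replicate numbers. All 6 knockdown ratios lay under all 3 SC ratios. Its efficiency differed from SC by -0.48 in SH2 (SE 0.18, edgeR adjusted p 0.150). In SH3 the value was -0.41 (SE 0.18, edgeR adjusted p 0.339), and the sign was the same in each of 13 alternative settings per hairpin. GAR1 went the other way. Its ratio was 1.94, 2.53 and 1.86 in SC, 3.79, 2.50 and 4.65 in SH2, and 2.03, 3.26 and 3.03 in SH3, with overlap between SC and both knockdowns. GAR1 differed from SC by 0.70 in SH2 (SE 0.25, edgeR adjusted p 0.127). In SH3 it was 0.44 (SE 0.25, edgeR adjusted p 0.495). SH2 replicate 2 was the lowest of its group, and without it the SH2 value was 0.98 at an edgeR adjusted p of 0.0252.

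NOP10 had ratios of 2.23, 2.74 and 2.26 in SC, 2.98, 2.89 and 3.26 in SH2, and 2.20, 2.17 and 2.25 in SH3. SH2 stood above all other libraries, and SH3 was at the bottom of the SC range. NOP10 differed from SC by 0.33 in SH2 (SE 0.14, edgeR adjusted p 0.189). In SH3 it was -0.11 (SE 0.14, edgeR adjusted p 0.817). The difference between the hairpins was 0.44 (SE 0.14, edgeR adjusted p 0.203), and this is the value that the DESeq2 Wald test called, at an adjusted p of 0.0386. The values for SH2 and SH3 were -0.16 and 0.19 for NHP2, -0.24 and -0.31 for NAF1, and -0.071 and 0.12 for SHQ1, and each 95% interval included 0.

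**Figure D3:**
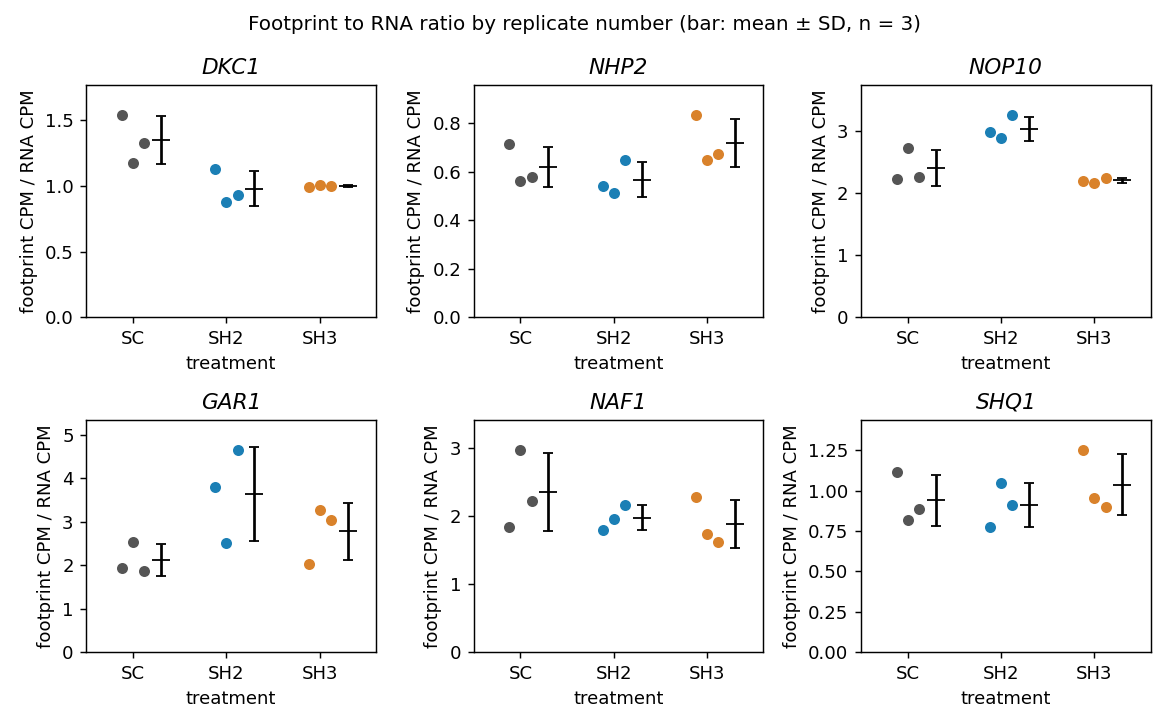
Ratio of footprint CPM to RNA CPM for each gene, by treatment, with 1 point per replicate number and the mean and SD beside them; axes are linear from 0. The DKC1 ratios of SH2 and SH3 lie under those of SC, and the NOP10 ratios of SH2 (2.89 to 3.26) lie above the rest.

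**Figure D4:**
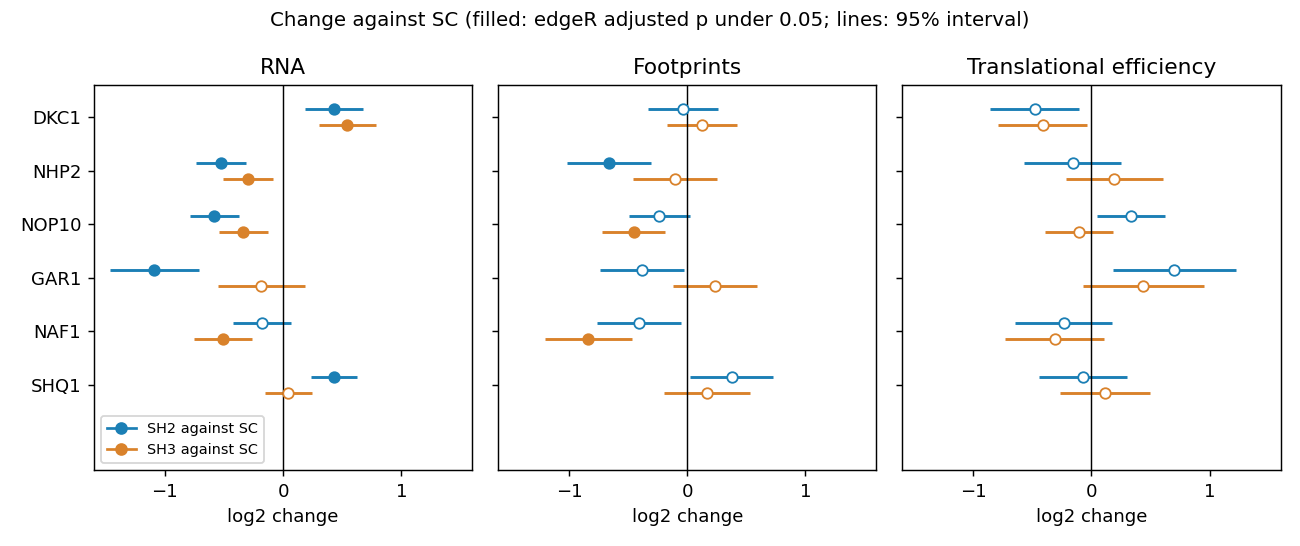
Log2 change of the 6 genes for each hairpin, with panels for RNA, footprints and translational efficiency. Points are edgeR estimates, lines their 95% intervals, and filled points have an adjusted p under 0.05: 9 in RNA, 3 in footprints and 0 in the efficiency panel. SH2 and SH3 share their SC libraries.

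The balance between subunits was then followed as the ratio of 2 genes' counts within a library, which needs no scaling. Counts are not corrected for gene length, so a ratio is read only for how it differs between treatments. These ratios were added after the values had been seen. With 3 libraries against 3, an exact permutation test cannot give a two-sided p under 0.1, and adjusted over the 30 ratio comparisons computed, none went below 0.167.

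In RNA the ratio of DKC1 to NHP2 was 0.910, 1.17 and 1.02 in SC, 1.79, 2.18 and 1.99 in SH2, and 1.63, 1.86 and 2.00 in SH3. Neither knockdown overlapped SC, and the log2 difference was 0.95 in SH2 and 0.83 in SH3 (exact permutation p 0.1 for each). The DKC1 to NOP10 ratio moved by nearly the same amount, by 1.01 and 0.87 on the log2 scale, again without overlap. NHP2 and NOP10, which fell together, gave overlapping RNA ratios. In SC their ratio was 2.68 ± 0.109 (SD, n = 3), in SH2 2.80 ± 0.205 and in SH3 2.77 ± 0.339. The RNA ratio of DKC1 to GAR1 lay between 5.36 and 6.09 in SC, 12.7 and 23.4 in SH2, and 7.78 and 11.1 in SH3, with no overlap between any of them. Its log2 difference from SC was 1.57 in SH2, wider than for the other DKC1 ratios, and 0.72 in SH3, narrower than for them.

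In footprints each of the 6 log2 differences of the DKC1 ratios against SC was smaller than in RNA. The DKC1 to NHP2 footprint ratio was 1.96, 2.45 and 2.33 in SC, 3.72, 3.73 and 2.87 in SH2, and 1.94, 2.88 and 2.97 in SH3, so that SH2 lay above SC and SH3 overlapped it. For DKC1 to NOP10 both knockdowns lay above SC, with log2 differences of 0.21 in SH2 and 0.57 in SH3. The DKC1 to GAR1 footprint ratio was 4.25, 2.83 and 4.18 in SC, 5.00, 4.45 and 4.72 in SH2, and 3.80, 3.44 and 3.25 in SH3, where SH2 lay above SC and SH3 within it.

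NAF1 and GAR1 take the same place on DKC1 at successive steps, and their ratio separated the hairpins. In RNA it was 1.31, 1.31 and 1.37 in SC, 2.84, 1.79 and 3.45 in SH2, and 0.871, 1.27 and 1.05 in SH3. SH2 lay above and SH3 below SC, with log2 differences of 0.97 and -0.34. In footprints it was 1.25, 1.53 and 1.64 in SC, 1.35, 1.40 and 1.61 in SH2, and 0.979, 0.675 and 0.561 in SH3. There the SH2 difference was -0.013, while SH3 lay below SC by 1.03 on the log2 scale. The rise of NAF1 relative to GAR1 in SH2 RNA was not present in SH2 footprints, and the fall in SH3 was in both kinds of library.

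**Figure D5:**
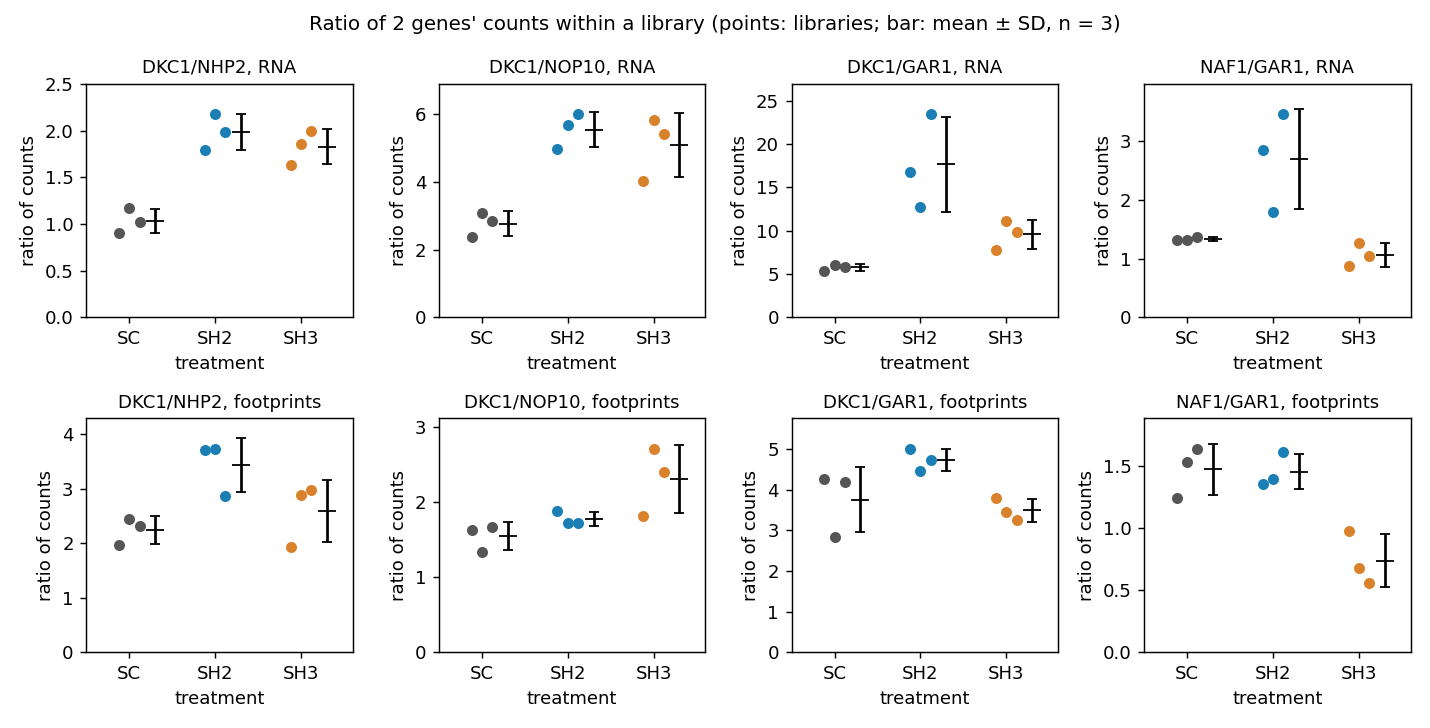
Ratio of counts of 2 genes within each library, for RNA (top) and footprints (bottom), by treatment; points are libraries, the mark and bar their mean and SD, and axes start at 0. In RNA the DKC1/NHP2 and DKC1/NOP10 ratios of SH2 and SH3 lie above SC, and NAF1/GAR1 lies above SC in SH2 and below it in SH3.

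The other genes of the pathway were read from lists drawn up for the purpose, with earlier results of these data known. Among 11 partners of the H/ACA particle, which serve telomerase, Cajal bodies, assembly or RNA end trimming, 5 were called in SH2 RNA (2 up, 3 down) and 5 in SH3 RNA (4 up, 1 down), where 61.4% and 53.0% of all genes were called, with median changes of 0.13 and -0.025. NOLC1, the nucleolar chaperone Nopp140 that binds both classes of particle, was called higher in both knockdowns in RNA (0.41 and 0.35) and footprints (0.44 and 0.67). Mean footprints of NOLC1 were 285 ± 24.9 CPM in SC (SD, n = 3), 388 ± 41.5 CPM in SH2 and 454 ± 40.3 CPM in SH3. PARN, a nuclease that trims the 3′ ends of H/ACA RNAs, rose in RNA in both (0.49 and 0.49). TGS1, which hypermethylates the cap of telomerase RNA, fell in RNA in both (-0.34 and -0.50). COIL, coilin of the Cajal body, had the highest change of the list, with 0.75 in SH3 footprints. Footprint calls were 1 partner up and 1 down in SH2, where 21.0% of all genes were up and 23.2% down. In SH3 they were 2 up, where 16.9% were up and 19.0% down. None of the 11 was called in translational efficiency by edgeR, where 3.90% of all genes were called in SH2 and 0.686% in SH3. Some of these calls were lost when a library was left out. NOLC1 footprints in SH2 were 0.39 without SC replicate 3 and 0.38 without SH2 replicate 3 (edgeR adjusted p 0.0649 and 0.0603). PARN RNA was 0.31 in SH2 without SH2 replicate 2, and in SH3 0.36 without SC replicate 1 and 0.40 without SH3 replicate 2 (edgeR adjusted p 0.0659, 0.0556 and 0.0660). TGS1 RNA in SH2 was -0.30 without SC replicate 3 and -0.25 with library totals (edgeR adjusted p 0.0579 and 0.0667).

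The 12 other pseudouridine synthases, which work without guide RNA, were divided too. SH2 RNA had 4 up and 4 down, where 31.1% of all genes were up and 30.4% down, and SH3 RNA had 2 up and 1 down, where 27.8% were up and 25.2% down. The RNA medians were 0.078 and 0.16. Footprints had 1 up and 4 down in SH2 (21.0% and 23.2% of all genes) and 1 up and 1 down in SH3 (16.9% and 19.0%), with medians of -0.30 and -0.092. TRUB1, a tRNA synthase, fell in both knockdowns in RNA (-0.35 and -1.42) and footprints (-0.73 and -1.40), with mean RNA of 29.2 ± 0.963 CPM in SC (SD, n = 3), 22.9 ± 1.63 CPM in SH2 and 10.9 ± 1.94 CPM in SH3. The SH3 calls of TRUB1 held in each of 12 alternatives. Its SH2 calls were lost in RNA without SC replicate 3, SH2 replicate 1 or SH2 replicate 3 (-0.37, -0.32 and -0.35, edgeR adjusted p 0.0561, 0.0763 and 0.0554) and with library totals (-0.26, edgeR adjusted p 0.0914). In footprints they were lost without SH2 replicate 2 or 3 (-0.53 and -0.64, edgeR adjusted p 0.0963 and 0.0700). TRUB2, a mitochondrial member, rose in RNA in both (0.69 and 0.56). In translational efficiency 0 of the 12 were called by edgeR in either knockdown, where 3.90% and 0.686% of all genes were called. The medians were -0.26 and -0.25, beside medians over all genes of -0.019 and -0.044.

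Fibrillarin's own core partners in the box C/D particle, NOP56, NOP58 and SNU13, give the nearest comparison, and values are set side by side without a test between the lists. NOP56 footprints rose by 1.00 in SH2 (SE 0.14, edgeR adjusted p 5.13e-05). In SH3 they rose by 1.30 (SE 0.14, edgeR adjusted p 9.83e-06), and its translational efficiency by 0.77 and 0.93 (edgeR adjusted p 0.0147 and 0.0122). The efficiency calls of NOP56 were lost in SH2 without SC replicate 3 or SH2 replicate 1 (0.66 and 0.72, edgeR adjusted p 0.0970 and 0.0647) and in SH3 without SC replicate 3, SH3 replicate 2 or SH3 replicate 3 (0.82, 0.92 and 0.92, edgeR adjusted p 0.107, 0.107 and 0.0775). NOP58 was called in none of these, with -0.19 and -0.023 in RNA, -0.091 and -0.070 in footprints and 0.090 and -0.035 in efficiency for SH2 and SH3. Footprint rises were called for 1 of the 3 box C/D genes and 0 of the 6 H/ACA genes in each knockdown. Over all genes, 21.0% were called higher in footprints in SH2 and 16.9% in SH3. In efficiency 1 of the 3 box C/D genes was called higher in each, where 1.44% and 0.375% of all genes were. SNU13, the sister protein of NHP2 in the C/D particle, had an RNA change of -0.25 in SH2 (edgeR adjusted p 0.0214) and 0.13 in SH3 (edgeR adjusted p 0.229), beside -0.52 and -0.29 for NHP2. The SNU13 call in SH2 was lost without SC replicate 1 or 3 (-0.22 and -0.27, edgeR adjusted p 0.0575 and 0.0508) and with library totals (-0.16, edgeR adjusted p 0.113). NOP58 and SNU13 were named to complete the core of the particle, after their values were seen.

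Guide RNAs of the H/ACA class are cut from introns of host genes, and 7 of the 12 hosts listed were in the RNA fits. Of these, 6 were lower in SH2 and 5 in SH3, where 30.4% and 25.2% of all genes were lower, and 0 were higher. DKC1, which also holds such guide genes, was not on this list, and its RNA rose in both knockdowns (0.43 and 0.54). EIF4A2, RPSA, RPL10, RPL23 and RPS2 fell in RNA in both knockdowns, by 0.31 to 0.69 in SH2 and by 0.36 to 0.76 in SH3 on the log2 scale. EIF4A2 footprints fell as well (-0.50 and -0.54), while RPSA and RPL10 rose in translational efficiency in both (0.76 and 0.73, and 0.90 and 0.83). In footprints 2 of the 6 hosts tested were called lower in SH2 and 1 in SH3, where 23.2% and 19.0% of all genes were. In efficiency 2 of 6 were called higher in each knockdown, both encoding ribosomal proteins, where 1.44% and 0.375% of all genes were higher. TAF1D had the deepest change, -0.98 in SH2 footprints, which 1 library carried. Its footprints were at 79.7, 31.6 and 31.4 CPM in SC and 23.0, 29.1 and 21.4 CPM in SH2. Without SC replicate 1 the value was -0.34 (edgeR adjusted p 0.176), and without SH2 replicate 1 or 3 it was -0.92 or -0.87 (edgeR adjusted p 0.0527 and 0.0628). RPS2 RNA lost its call in SH2 without SC replicate 3, SH2 replicate 1 or SH2 replicate 2 (-0.23, -0.25 and -0.30, edgeR adjusted p 0.170, 0.142 and 0.0939) and in SH3 without SC replicate 3, SH3 replicate 1 or SH3 replicate 3 (-0.28, -0.30 and -0.38, edgeR adjusted p 0.108, 0.0752 and 0.0537). With library totals it was -0.22 and -0.28 (edgeR adjusted p 0.138 and 0.0699). The RPSA efficiency call was lost in 2 of 13 alternatives in SH2 (without SC replicate 3, 0.71, or SH2 replicate 1, 0.74). In SH3 it was lost in 8 of 13, among them without SC replicate 2 or 3 (0.72 and 0.68) and without SH3 replicate 1, 2 or 3 (0.78, 0.68 and 0.73). RPL10 kept its efficiency call in SH2 in all 13, and lost it in SH3 with the lysate block (0.83) and without SC replicate 3 (0.79) or SH3 replicate 1, 2 or 3 (0.84, 0.81 and 0.83). Most of these hosts encode ribosomal proteins, which have many pseudogenes. EIF4A1, named for its low counts after they were seen, passed the filter in RNA only.

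By likeness, none of the 6 genes had another of the 6 among its 3 nearest genes. Likeness was the root mean square difference of centred log2 CPM over all 18 libraries, against 10334 other genes. Among so many, 3 places seldom hold a named gene, so that absence says little about the complex. DKC1 was nearest to LUC7L (0.10), MRPL38 (0.10) and RFXANK (0.11), NOP10 to ABHD10 (0.10), SHQ1 to ALAD (0.094), NAF1 to EXOSC7 (0.12), NHP2 to EXOSC3 (0.13) and GAR1 to LACTB2 (0.17). The closest pair among the 6 was NOP10 with NAF1, at 0.26, where NAF1 ranked number 1556 from NOP10 and NOP10 number 555 from NAF1. From NHP2 the nearest was NOP10, at 0.27 and number 937. For DKC1 the nearest of the others was SHQ1, at 0.29 and number 2387, and DKC1 was number 2347 from SHQ1. For GAR1 it was NHP2, at 0.38 and number 1194. Ranks to be met without any relation were not computed.

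The authors' deposited table gives their own DESeq2 changes for these genes. It lists RNA changes in SH2 and SH3 of 0.41 and 0.52 for DKC1, -0.54 and -0.32 for NHP2, -0.60 and -0.36 for NOP10, -1.11 and -0.21 for GAR1, -0.19 and -0.54 for NAF1, and 0.42 and 0.020 for SHQ1. At an adjusted p under 0.05 the authors' deposited table has the same 5 RNA calls in SH2 and 4 in SH3 as described above, and the same footprint calls, NHP2 in SH2 (adjusted p 0.00246) and NOP10 and NAF1 in SH3 (0.00579 and 0.000251).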

How the data were processed

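The values came from a single table with 17017 gene symbols and all 18 libraries. Its raw counts per gene and library are as deposited by the authors. The deposited normalized signal columns are the counts divided by 1 size factor per library, per the file headers and the values, and were not tested. The log2 changes and p-values of the authors' own DESeq2 comparisons are deposited beside them. A further deposited measure named RD holds identical values for SH2 and SH3 in all 17017 entries, so it was not used. Bowtie 1.2.2 and DESeq2 are named in the submitters' processing notes. Genome build, annotation, counting tool and the handling of reads that match several places are not given in the sources used here.

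Counts were tested with edgeR 4.0.16 in R 4.3.3 (filterByExpr, TMM scaling, quasi-likelihood test, two-sided, Benjamini-Hochberg over all genes tested, called under 0.05): 1 fit of the 9 RNA libraries, 1 of the 9 footprint libraries, and 1 of all 18 libraries for translational efficiency. SE is the absolute log2 change over the square root of F. For likeness, log2 CPM had a prior count of 3. The fits were tested on simulated data with 200 genes changed by known amounts. Replicates differed beyond counting noise (chi-square per degree of freedom 3.55 to 58.7). Deviations of same-numbered SH2 and SC libraries correlated at 0.36 to 0.40 across genes in RNA and 0.25 to 0.30 in footprints. The main fits had no replicate block. SH2 and SC were paired by number only in the replicate block, an alternative, on the data's evidence and not the labels'. Members and lists were chosen with earlier results of these data known. Named genes were the 6 members and, from each list, the genes called in both knockdowns in the same direction in any measure and the one with the largest change. NOP58, SNU13 and EIF4A1 fell outside that rule. The settings were also run on the named list genes, a choice made after seeing the data. Alternatives were DESeq2 1.42.0, its size factors, library totals, no filter, replicate and lysate blocks, only the treatments compared, and leaving out each replicate. Footprint density per codon was planned and not run, since protein lengths were not used here.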

Additional observations from a re-analysis of the deposited data

Results flagged for a closer look

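SH2 and SH3, compared directly in 1 fit, differed in 5 values of the 6 genes. In RNA the log2 difference, SH2 minus SH3, was -0.91 for GAR1 (edgeR adjusted p 0.00116), 0.33 for NAF1 (edgeR adjusted p 0.0330) and 0.39 for SHQ1 (edgeR adjusted p 0.00442). In footprints it was -0.56 for NHP2 (edgeR adjusted p 0.0274) and -0.62 for GAR1 (edgeR adjusted p 0.0159). GAR1 is the gene that differed in both kinds of library and in the same direction. The GAR1 RNA difference kept its call in each of 12 alternatives (-1.18 to -0.71), as did the SHQ1 RNA difference (0.32 to 0.44). The NAF1 RNA difference and both footprint differences lost theirs in 3 or 4 settings that left out 1 replicate.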

How the results depend on the processing

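Of 666 values of single genes recomputed under other settings, 633 kept direction and side of the threshold, 16 lost the call, 9 gained one and 8 changed sign. Changes of sign came only from leaving out replicates, in uncalled values, given here as ranges: SHQ1 RNA in SH3 (-0.0067 to 0.074), DKC1 footprints in SH2 (-0.11 to 0.018), NHP2 footprints in SH3 (-0.22 to 0.063), SHQ1 translational efficiency in SH2 (-0.20 to 0.090) and SH3 (-0.011 to 0.27), and NAF1 translational efficiency between hairpins (-0.015 to 0.20). The cause was not tested. The footprint calls in SH2, 1 of 6 genes, became 2 without a filter on low counts (34.4% of all genes called) and 3 with the replicate block (48.5%). They were 1 to 3 without single replicates (35.8% to 45.7% of all genes). Without single replicates they were 1 to 2 in SH3 (25.2% to 36% of all genes), and 0 to 1 between the hairpins (14.7% to 20%), from 2. With only the treatments compared they were 3 between the hairpins, NAF1 (0.43, edgeR adjusted p 0.0386) being added. In that setting 30% of all genes were called, against 23.8% in the main fit. Translational efficiency calls were 0 to 1 in SH2 without single replicates (0.87% to 4.39% of all genes), and 1 between the hairpins with the DESeq2 Wald test (2.28%). RNA calls against SC stayed at 5 in SH2 (47.3% to 65.7% of all genes) and at 3 to 4 in SH3 (40.2% to 58.2%). For SH3 not every same-numbered pair correlated over 0.1. In RNA the correlations with SC were 0.25, -0.15 and 0.35 and with SH2 0.49, -0.0017 and 0.30, so that replicate 2 alone failed, and in footprints 0.017, -0.060 and 0.26 with SC and -0.0096, -0.12 and 0.31 with SH2. The replicate block there added 1 call, NOP10 RNA between the hairpins (-0.24, edgeR adjusted p 0.0442). The lysate block, which pairs RNA and footprints by number, was run for efficiency only, where no member was called. It gave 191 calls over all genes in SH2, in place of 489, and 23 in SH3, in place of 86. In SC and SH2 that pairing had negative correlations for replicates 1 and 2. With library totals the median RNA change of all genes was 0.11 in SH2 and 0.12 in SH3. Footprint counts of the members went down to 89, for SHQ1 in SC replicate 2.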
